A study of Mus musculus with 12 samples.

Results

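The HoxD cluster of the mouse holds 9 Hoxd genes and Evx2, and its contacts were followed in embryonic stem cells and in the neuronal committed cells derived from them. The 10 genes were taken by name, out of 21512 protein-coding genes. Every interaction with an anchor in a window of 123 kb around them (GRCm38, chr2:74645000-74768000) was counted. Each anchor was given to the gene with the nearest coding span. Partners were placed in the cluster itself, in the centromeric flank (chr2:73900000-74645000, 745 kb) or in the telomeric flank (chr2:74768000-75700000, 932 kb). The embryonic stem cells (ESC) carried the strain label E14Tg2A and were kept in medium with 100 U/mL of leukemia inhibitory factor. The neuronal committed cells (NCC) were the same cells given 1 uM retinoic acid for 48 hours without that factor. All cells were fixed with 1% formaldehyde, and contacts were read by Hi-C or by HiChIP, which keeps only the contacts pulled down with an antibody, here against FGFR1 or against CTCF. In all, 12 libraries had been merged into 6 tables, 1 for each cell type and assay, so each group had 1 pooled value without a replicate spread.

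Hox genes encode homeodomain transcription factors that pattern the body axis, and they are used in the order in which they lie on the chromosome. At HoxD, the genes between a pair of gene deserts are known to take contacts from either side: the centromeric desert serves Evx2 and the last Hoxd genes in digits and genitals, and the telomeric desert serves the early and middle Hoxd genes in the trunk and proximal limb. Retinoic acid is a classic inducer of the genes at the Hoxd1 end, CTCF is a DNA-binding protein that holds chromatin loops, and FGFR1 is a growth factor receptor of which a form acts in the nucleus. The tables hold contacts and no expression, so the cell type labels could not be checked against marker genes, and no statement on the activity of a Hoxd gene is made.

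From the centromeric to the telomeric side the genes lie as follows on chromosome 2. Evx2 (chr2:74652991-74659557, minus strand), a homeobox gene that shares the enhancers of its neighbour Hoxd13, comes first. Hoxd13 (chr2:74668310-74671599), Hoxd12 (chr2:74675013-74677705) and Hoxd11 (chr2:74679557-74687016) are the posterior genes of limb and genital patterning. Hoxd10 (chr2:74691924-74695105), Hoxd9 (chr2:74697727-74700208) and Hoxd8 (chr2:74704615-74707933) form the middle of the cluster. Hoxd4 (chr2:74711929-74729160), Hoxd3 (chr2:74711927-74748442) and Hoxd1 (chr2:74762980-74765142) are the anterior genes, used in hindbrain and neck. The anchors were called separately in each table and were cut differently, so the cluster was also divided into 12 segments, each a run of overlapping anchors over the 6 tables. A segment bears the name of the gene whose coding part it covers, and a segment between coding parts is called an interval. Hoxd13, Hoxd12 and Hoxd11 shared 1 segment, because a single ESC Hi-C anchor of 17.3 kb overlapped the coding parts of all of them.

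Sequence features of the region are printed here because the contacts are read against them later. The first set holds the 5 flank matches to the CTCF core motif whose Hi-C anchor had at least 10 read pairs with the cluster in either cell type. The second set holds the near matches that lay inside an anchor of the cluster in all 6 tables. The last line is a direct repeat with a spacer of 5 bases (DR5), the layout of a retinoic acid response element. Each was read from RefSeq's GRCm38 sequence, 5′ to 3′ on the strand named, with 4 bases on each side. Capitals mark the bases that fit the motif, and in a near match the base that does not is in lower case.
CTCF core, 617 kb centromeric, chr2:74027921-74027932, plus strand: tggcCCAGTAGATGGCagcc
CTCF core, 345 kb centromeric, chr2:74300448-74300459, plus strand: atgaCCAGTAGGTGGCggtc
CTCF core, 383 kb telomeric, chr2:75151173-75151184, minus strand: ttcaCCACCAGGTGGCgccc
CTCF core, 385 kb telomeric, chr2:75152692-75152703, minus strand: cagtCCACTAGAGGGCgctt
CTCF core, 822 kb telomeric, chr2:75590413-75590424, minus strand: gtgtCCACTAGGTGGCgcgc
near match between Hoxd13 and Hoxd12, chr2:74672642-74672653, minus strand: aataCCACCAGAGaGCattt
near match between Hoxd13 and Hoxd12, chr2:74673178-74673189, minus strand: acgcCCAGgAGATGGCgagc
near match in an exon of Hoxd3 and Hoxd4, chr2:74712151-74712162, plus strand: cactCCAGCAGGGaGCcgac
DR5 in an intron of Hoxd3, chr2:74741540-74741556, plus strand: tttaGGTTCAagcagAGTTCAcaag

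The cluster had slightly fewer Hi-C contacts in NCC, and its partners were different. Contacts among its own anchors were fewer, contacts with the telomeric flank were more, and the centromeric flank had no settled direction. The depth on chromosomes 1 to 19 and X was 20745652 read pairs for ESC Hi-C and 21228099 for NCC Hi-C, 2662606 and 3203872 for FGFR1, and 1218098 and 1056437 for CTCF. Paired values are given in the order ESC and NCC, and all ratios are NCC over ESC after scaling to these totals, with exact 95% intervals that cover counting error only. In Hi-C, 3600 read pairs joined a cluster anchor to a different anchor in ESC and 3424 in NCC (ratio 0.929). Within the cluster there were 916 and 569, a ratio of 0.607 (log2 −0.72, interval −0.87 to −0.57). As a share of the cluster's contacts this was 25.4% (24.0 to 26.9) in ESC and 16.6% (15.4 to 17.9) in NCC. The telomeric flank held 926 and 1167 read pairs, a ratio of 1.23 (log2 0.30, interval 0.17 to 0.43), and its share went from 25.7% to 34.1%. The centromeric flank held 530 and 488, a ratio of 0.900 whose interval included no change (log2 −0.15, interval −0.33 to 0.03). This value depended on the processing: with interactions of at least 2 read pairs it was −0.41 (interval −0.65 to −0.16), and without each table's own strongest anchor it was 0.34 (interval 0.14 to 0.54).

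These differences were set against all windows of the same length along the genome with flanks of the same lengths. By Fisher's exact test with Benjamini-Hochberg adjustment over 15972 windows, the difference within the cluster had an adjusted p of 7.76e-20. In 16.2% of those windows the contacts within were lower in NCC past 1.5-fold, and HoxD was at percentile 13.3. The telomeric difference had an adjusted p of 1.00e-05 and stood at percentile 80.8. The test compares 1 pooled library with another, not the conditions. The anchors covered 66.7% of the cluster window in ESC and 68.1% in NCC, 52.4% and 49.8% of the centromeric flank, and 54.1% and 54.5% of the telomeric flank.

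The telomeric flank took 63.6% of the flank read pairs in ESC (interval 61.1 to 66.1) and 70.5% in NCC (68.3 to 72.7). The odds ratio was 1.37 (log2 0.45, interval 0.23 to 0.67), with an adjusted p of 0.000537 over 17571 windows by Fisher's exact test. It did not pass 1.5-fold, which 24.7% of windows did in either direction, and it stood at percentile 83.3. The anchor with the most read pairs was that of Hoxd13 to Hoxd11 in ESC and that of Hoxd3 in NCC, and without each table's own strongest anchor the log2 odds ratio turned to −0.15. With 1 segment at a time left out of both tables it stayed between 0.33 and 0.58.

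**Figure D1:**
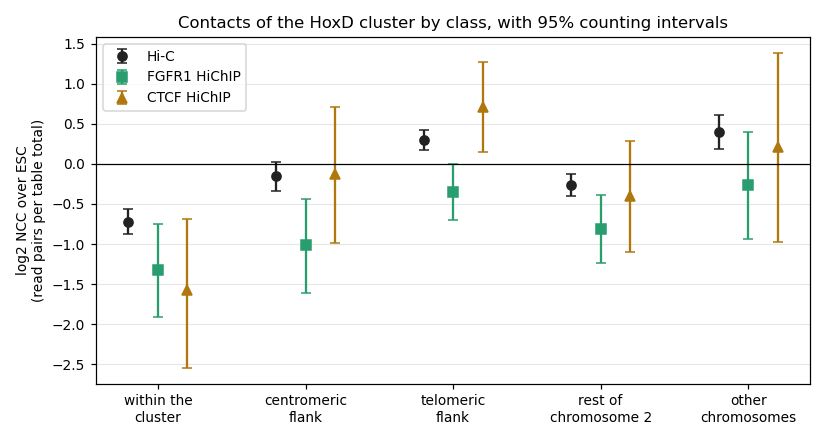
Read pairs of the HoxD cluster by class of partner, as the log2 ratio NCC over ESC scaled to the table total. Points are pooled tables of Hi-C, FGFR1 HiChIP and CTCF HiChIP and bars are exact 95% counting intervals. Within the cluster all 3 assays lie below 0 (−0.72, −1.32 and −1.57), whereas for the telomeric flank Hi-C and CTCF lie above 0 (0.30 and 0.71) and FGFR1 lies at −0.35.

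Both HiChIP assays also had fewer read pairs within the cluster in NCC. FGFR1 read pairs within the cluster were 81 in ESC and 39 in NCC, a ratio of 0.400 (log2 −1.32, interval −1.91 to −0.75). CTCF read pairs within were 48 and 14, a ratio of 0.336 (log2 −1.57, interval −2.55 to −0.69). All FGFR1 contacts of the cluster were also fewer, 445 and 331 (ratio 0.618, log2 interval −0.90 to −0.49). The share within was 18.2% and 11.8% (log2 odds ratio −0.74, interval −1.37 to −0.12). All CTCF contacts were 186 and 150 (ratio 0.930), with a share within of 25.8% and 9.33%. Among same-length windows the scaled ratios within the cluster (0.400 and 0.336) stood at percentiles 4.68 and 3.22. By Fisher's exact test their adjusted p was 1.89e-05 over 12120 windows and 0.00214 over 2795 windows. With the telomeric flank, CTCF had 48 and 68 read pairs (log2 0.71, interval 0.15 to 1.27, adjusted p = 0.0848 over 3895 windows by the same exact test). FGFR1 had 140 and 132 there (log2 −0.35, interval −0.71 to 0.00) and 69 and 41 with the centromeric flank (log2 −1.02, interval −1.61 to −0.44). The telomeric share of flank read pairs was 67.0% and 76.3% for FGFR1 and 62.3% and 74.7% for CTCF, and the intervals of both odds ratios included no change. The FGFR1 anchors covered 43.3% of the cluster in ESC and 38.7% in NCC, and the CTCF anchors 36.7% and 29.9%. In the flanks the FGFR1 anchors covered more in NCC, 30.1% and 33.6% on the centromeric and 35.6% and 39.99% on the telomeric side. The part of the covered length in these differences was not tested. With only the anchors that overlapped an anchor of the other cell type, the CTCF value within the cluster was −0.79 and its interval included no change, and with interactions of at least 2 read pairs the FGFR1 value of the centromeric flank was −0.16.

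The flank contacts of the genes differed by position. The share of flank read pairs that went to the telomeric side rose along the cluster in both cell types. Segments nearer the Hoxd1 end also lie nearer the telomeric flank, and the flanks differ in length (745 kb centromeric, 932 kb telomeric). The part of distance and length in this rise was not tested. By segments, the step lay between the segment from Hoxd13 to Hoxd11 and Hoxd10. Inside that segment the share could be followed only in NCC, where Hoxd11 had an anchor of its own. In ESC, the segment beside Evx2 had 11 telomeric and 53 centromeric read pairs, a telomeric share of 17.2% (interval 8.90 to 28.7). The Evx2 segment had 51 and 150, a share of 25.4%. The segment from Hoxd13 to Hoxd11 had 116 and 171, a share of 40.4% (34.7 to 46.3). The interval between Hoxd11 and Hoxd10, which had an anchor only in ESC, had 22 and 13, or 62.9%. Hoxd10 followed with 75.0% (54 of 72 read pairs), Hoxd9 with 77.0% and Hoxd8 with 84.5%. From there to Hoxd1 the shares stayed between 81.7% and 90.5%, and neighbouring segments there had overlapping intervals.

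In NCC the shares of the posterior segments were close to those of ESC, and those from Hoxd10 on were higher. The segment beside Evx2 stood at 18.5%, Evx2 at 21.6% and Hoxd13 to Hoxd11 at 42.5%. This last segment held separate NCC anchors with different shares. The anchor over Hoxd13 and Hoxd12 stood at 29.7% (interval 23.5 to 36.5) and that over Hoxd11 at 67.3% (57.4 to 76.2). By single anchors, the larger step in NCC thus lay between Hoxd12 and Hoxd11. Hoxd10 stood at 81.1% and Hoxd9 at 83.7%. Hoxd8 stood at 94.9% (interval 90.1 to 98.0), with 148 telomeric and 8 centromeric read pairs against 98 and 18 in ESC. Hoxd4 stood at 94.4% against 85.9%, the interval between Hoxd4 and Hoxd3 at 91.7% against 81.7%, Hoxd3 at 90.3% against 83.3%, and Hoxd1 at 94.1% against 90.5%. Of the 11 segments with anchors in both tables, 10 had a higher telomeric to centromeric odds in NCC, and 3 had an interval above no change: Hoxd8, the interval between Hoxd4 and Hoxd3, and Hoxd3. The exception was Evx2, with a log2 odds ratio of −0.31 (interval −1.06 to 0.43).

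**Figure D2:**
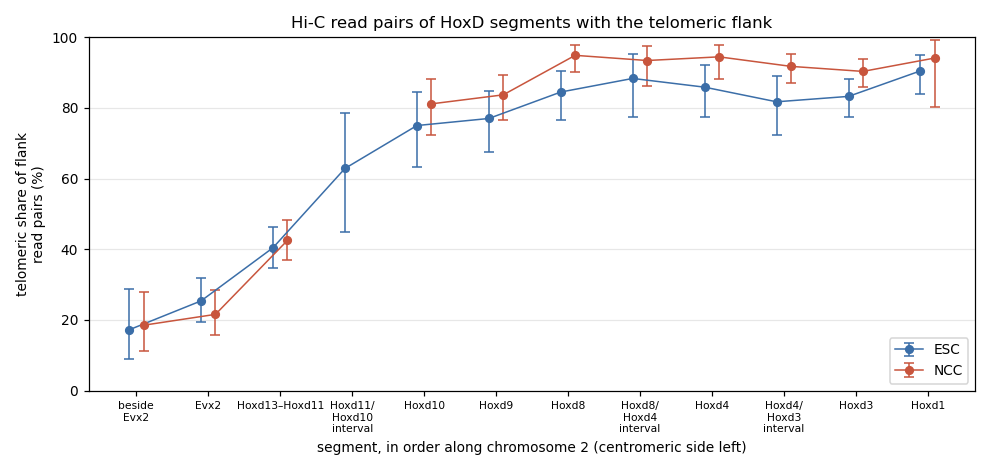
Telomeric share of the Hi-C read pairs with both flanks, in percent, for the 12 segments in order along the chromosome, centromeric side left. Points are pooled tables (ESC blue, NCC red) and bars are exact 95% binomial intervals. The share rises from 17.2% beside Evx2 to 90.5% at Hoxd1 in ESC, and NCC lies above ESC in every segment from Hoxd10 on.

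Summed from Evx2 to Hoxd11, the centromeric flank had 374 read pairs in ESC and 382 in NCC and the telomeric flank 178 and 183, so the telomeric share was 32.2% and 32.4%. Summed from Hoxd10 to Hoxd1, the centromeric flank had 156 and 106 and the telomeric flank 748 and 984, a share of 82.7% and 90.3% (log2 odds ratio 0.95, interval 0.56 to 1.35). The ESC sum also holds the interval between Hoxd11 and Hoxd10, with 13 centromeric and 22 telomeric read pairs. That interval had no anchor in NCC, and its part in the odds ratio was not tested. The difference of the log2 odds ratios between these groups was 0.94 (interval 0.42 to 1.47). The place of this division was chosen after its values were seen, so no p is given. With the division between Hoxd8 and Hoxd4, the log2 odds ratio was 0.36 (interval 0.09 to 0.63) on the Evx2 side and 0.96 (interval 0.42 to 1.5) on the Hoxd1 side, and the difference was 0.60 (interval 0.01 to 1.18).

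In both HiChIP assays the telomeric share was also lowest from Evx2 to Hoxd11. Hoxd10 to Hoxd8 lay below Hoxd4 to Hoxd1, as in Hi-C, only in CTCF HiChIP of ESC. In each HiChIP table the intervals of both groups overlapped, and in FGFR1 the former held the Hoxd8 segment alone. In Hi-C, Hoxd10 to Hoxd8 (77.7% and 87.3%) lay below Hoxd4 to Hoxd1 (85.5% and 92.0%). The ESC value of Hoxd10 to Hoxd8 in Hi-C also holds the interval between Hoxd11 and Hoxd10, which had no NCC anchor. In FGFR1 HiChIP the telomeric share from Evx2 to Hoxd11 was 27.8% in ESC (20 of 72 read pairs) and 38.0% in NCC (19 of 50), from Hoxd10 to Hoxd8 it was 94.1% and 93.9%, and from Hoxd4 to Hoxd1 it was 86.7% and 91.1%. In CTCF HiChIP the segments from Evx2 to Hoxd11 had 22.2% and 37.5%, those from Hoxd10 to Hoxd8 80% (8 of 10 read pairs) and 100% (33 of 33), and those from Hoxd4 to Hoxd1 85.0% and 88.5%. The HiChIP odds ratios that could be computed, all but that of Hoxd10 to Hoxd8 in CTCF, had intervals that included no change. CTCF read pairs of the Hoxd9 and Hoxd8 segments with the telomeric flank were 8 in ESC and 33 in NCC (log2 2.25, interval 1.11 to 3.58), but the CTCF anchor of the Hoxd8 segment was 4.69 kb long in ESC and 11.999 kb in NCC. No FGFR1 anchor lay over Hoxd10 or Hoxd9 and no CTCF anchor over Hoxd10.

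The same genes were then compared with all protein-coding genes, using read pairs up to 1 Mb and, for the balance of sides, partners at 100 kb to 1 Mb on the higher against the lower coordinate side. Of the 10 genes, 7 had at least 50 read pairs in both cell types together and an anchor in each, while Hoxd13, Hoxd12 and Hoxd11 had 1 anchor in ESC, assigned to Hoxd12, and 2 in NCC, assigned to Hoxd13 and Hoxd11. For this comparison the anchors of the whole genome were given to their nearest gene, so the counts of Evx2 and Hoxd1, the outermost genes, also hold anchors outside the cluster window. On the telomeric side 6 of these 7 had odds past 1.5-fold higher in NCC, beside 9.63% of 17759 genes. With interactions of at least 2 read pairs it was 3 of the 5 that had enough. Hoxd8 had a log2 odds ratio of 1.99 (interval 0.59 to 3.55), with 18 lower-side and 91 higher-side read pairs in ESC and 7 and 141 in NCC. Hoxd4 had 1.46, Hoxd1 1.37, Hoxd3 1.17, Hoxd9 0.73 and Hoxd10 0.62, and the intervals of the last 2 included 0. Evx2 had −0.33 (interval −0.85 to 0.19). The median over the 7 genes was 1.17 and over all genes −0.00. The members lie side by side and share partners, so their values were not independent of each other.

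**Figure D3:**
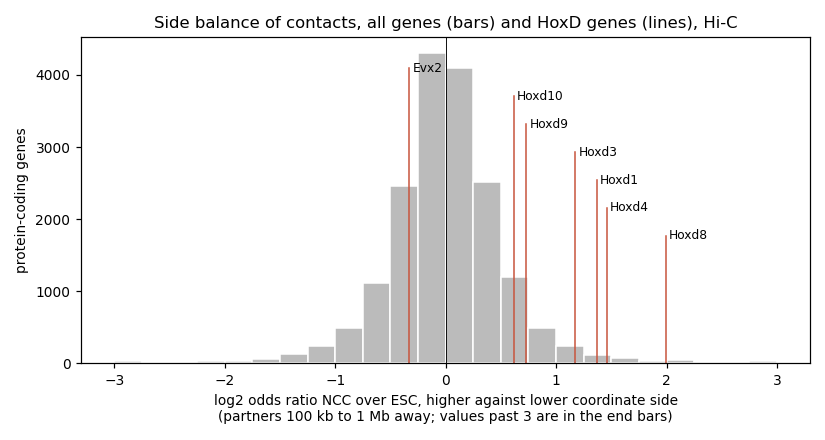
Log2 odds ratio NCC over ESC of Hi-C read pairs with partners on the higher against the lower coordinate side, 100 kb to 1 Mb away. Grey bars count protein-coding genes and red lines mark the 7 genes of the cluster with enough read pairs (line height has no meaning). Evx2 lies at −0.33, and the other 6 lie between 0.62 (Hoxd10) and 1.99 (Hoxd8).

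The amount of contact per gene depended on how the anchors were cut. By nearest coding span, 4 of the 7 genes were lower in NCC past 1.5-fold, beside 12.9% of 18483 genes, and 1 was higher, beside 7.66%. Hoxd1 had 614 read pairs in ESC and 344 in NCC (log2 −0.87), while its anchors inside the cluster window had 446 and 91 contacts at any distance, Hoxd10 328 and 188 (−0.84), Evx2 811 and 476 (−0.80) and Hoxd4 543 and 328 (−0.76). Hoxd3 had 312 and 743 (log2 1.22, interval 1.03 to 1.41), but this rested on the anchor between Hoxd4 and Hoxd3, whose nearest coding span was that of Hoxd4 in ESC and that of Hoxd3 in NCC. Over the Hoxd3 segment itself the contacts were 586 and 658 (log2 0.13, interval −0.03 to 0.30), and over the Hoxd4 segment 277 and 289. Counted by the segments named after the 7 genes, 2 were lower past 1.5-fold and 0 higher. The interval between Hoxd4 and Hoxd3, not in that count, was higher past 1.5-fold. It had 346 and 603 contacts, with 6.48 and 9.13 kb of anchor. In FGFR1 HiChIP, 5 of 7 genes with enough read pairs were lower past 1.5-fold, beside 25.4% of 15252 genes, with Hoxd1 (96 and 42 read pairs, log2 −1.46) the lowest. The FGFR1 anchors of Hoxd1 inside the cluster window were 7.16 kb long in ESC and 2.34 kb in NCC. Hoxd3 (log2 −0.60) and Hoxd4 (log2 −0.59) passed 1.5-fold only narrowly. In CTCF HiChIP, 3 genes had enough read pairs: Evx2 had 42 and 43, Hoxd4 30 and 27, and Hoxd1 39 and 20, and all 20 of the latter came from anchors outside the cluster window.

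A pair of segments had exactly the same Hi-C anchor in both cell types and so could be compared without a difference in their own length. The anchors of their partners still differed. The interval between Hoxd11 and Hoxd10, with 10 ESC read pairs with Hoxd8 and 15 with Hoxd10, had no anchor in NCC. Hoxd8 (anchor chr2:74703562-74715561, 11.999 kb) had 157 read pairs with other segments in ESC and 94 in NCC (log2 −0.77, interval −1.16 to −0.40). With the telomeric flank it had 98 and 148 (log2 0.56, interval 0.18 to 0.94), and with the centromeric flank 18 and 8 (log2 −1.20, interval −2.61 to 0.07). Hoxd10 (anchor chr2:74691239-74694239, 3 kb) had 148 and 78 with other segments (log2 −0.96, interval −1.37 to −0.55), 54 and 86 with the telomeric flank (log2 0.64, interval 0.13 to 1.16), and 18 and 20 with the centromeric flank. Over both of these genes the contacts with the rest of the cluster were fewer and those with the telomeric desert were more. As shares of its own contacts, those of Hoxd8 with other segments were 43.6% and 28.5%, with the telomeric flank 27.2% and 44.8% and with the centromeric flank 5.0% and 2.42%. Those of Hoxd10 were 50.2% and 31.7%, 18.3% and 34.96%, and 6.10% and 8.13% in the same order.

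Hoxd9, whose anchor was 4.10 kb in ESC and 4.17 kb in NCC, gave the same picture. It had 155 and 88 read pairs with other segments (log2 −0.85), 77 and 118 with the telomeric flank (log2 0.58, interval 0.16 to 1.02), and 23 in each table with the centromeric flank. Evx2 and Hoxd13 to Hoxd11 had the lowest ratios inside the cluster among the 11 segments, while the segment beside Evx2 had 31 and 32 read pairs with other segments (log2 0.01). Evx2 had 214 and 92 read pairs with other segments (log2 −1.25, interval −1.62 to −0.89) and Hoxd13 to Hoxd11 had 396 and 156 (log2 −1.38, interval −1.65 to −1.11). For the latter the flank counts were nearly level, 171 and 176 centromeric and 116 and 130 telomeric read pairs, with 17.3 and 14.8 kb of anchor. As shares of its own contacts, those of Evx2 with other segments were 38.4% and 24.6%, with the centromeric flank 26.9% and 35.03% and with the telomeric flank 9.14% and 9.63%.

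The anterior segments differed less inside the cluster. Hoxd4 had 106 and 95 read pairs with other segments, Hoxd3 196 and 172, and the interval between them 160 and 190, and all 3 intervals of the ratio included no change. With the telomeric flank, the interval between Hoxd4 and Hoxd3, in which a transcript of Hoxd3 starts, had 76 and 189 (log2 1.28, interval 0.89 to 1.68). Its anchor grew from 6.48 to 9.13 kb, and per kb of anchor the log2 ratio was 0.79. Hoxd1 had fewer, with 114 and 32 telomeric read pairs (log2 −1.87), but its anchor was 5.81 kb in ESC and 2.66 kb in NCC, and per kb of anchor the log2 ratio was −0.74. Over the 11 segments with anchors in both tables, contacts with other segments were lower in NCC in 9, and contacts with the telomeric flank were higher in 9. For the telomeric flank 6 intervals lay above no change and 1, that of Hoxd1, below.

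Inside the cluster, Hi-C contacts among the genes from Evx2 to Hoxd8 and between these and the anterior genes were fewer in NCC, and those among the anterior genes were not. For this the cluster was divided into the genes from Evx2 to Hoxd8 and those from Hoxd4 to Hoxd1. Read pairs between the blocks were 303 in ESC and 130 in NCC, a ratio of 0.419 (log2 −1.25, interval −1.56 to −0.95). Among the genes from Evx2 to Hoxd8 they were 457 and 239, a ratio of 0.511 (log2 −0.97, interval −1.20 to −0.74). Among those from Hoxd4 to Hoxd1 they were 156 and 200, a ratio of 1.25 (log2 0.33, interval 0.02 to 0.64). Between different segments only, this last count was 127 and 200 (ratio 1.54), and it rested on the interval between Hoxd4 and Hoxd3, without which it was 60 and 59. Without each table's own strongest anchor, which differed between the tables, both within-block values turned, to log2 0.44 for Evx2 to Hoxd8 and −1.21 for Hoxd4 to Hoxd1. With the Hoxd13 to Hoxd11 segment left out of both tables, the value of Evx2 to Hoxd8 was −1.04.

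Single segment pairs showed where the read pairs lay. Hoxd13 to Hoxd11 and Hoxd3, 78.0 kb apart, had 44 read pairs in ESC and 7 in NCC (log2 −2.69, interval −4.08 to −1.52). Evx2 and Hoxd3, 93.2 kb apart, had 20 and 2 (log2 −3.36, interval −6.50 to −1.31). Hoxd13 to Hoxd11 and Hoxd8, 34.3 kb apart, had 44 and 13 (log2 −1.79), and Evx2 and Hoxd13 to Hoxd11, which are direct neighbours, had 109 and 58 (log2 −0.94). The opposite was seen for the interval between Hoxd4 and Hoxd3 and the Hoxd3 segment, with 39 and 86 (log2 1.11, interval 0.55 to 1.69). Of 37 segment pairs with at least 10 read pairs, 29 were lower in NCC and 8 higher. The 29 include pairs of the interval between Hoxd11 and Hoxd10, which had no NCC anchor and so could only be 0 there. In ESC these had 31 read pairs with Hoxd13 to Hoxd11, 15 with Hoxd10 and 10 with Hoxd8. By distance, read pairs within the cluster up to 20 kb apart were 445 and 334 (ratio 0.734), those at 40 to 60 kb 92 and 53 (0.563), those at 60 to 80 kb 117 and 21 (0.175) and those farther apart 39 and 10 (0.251). These distances join anchor midpoints, and the anchors were cut differently in ESC and NCC. Read pairs of the same segments could therefore fall in different distance ranges, and the part of this in the ratios was not tested.

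**Figure D4:**
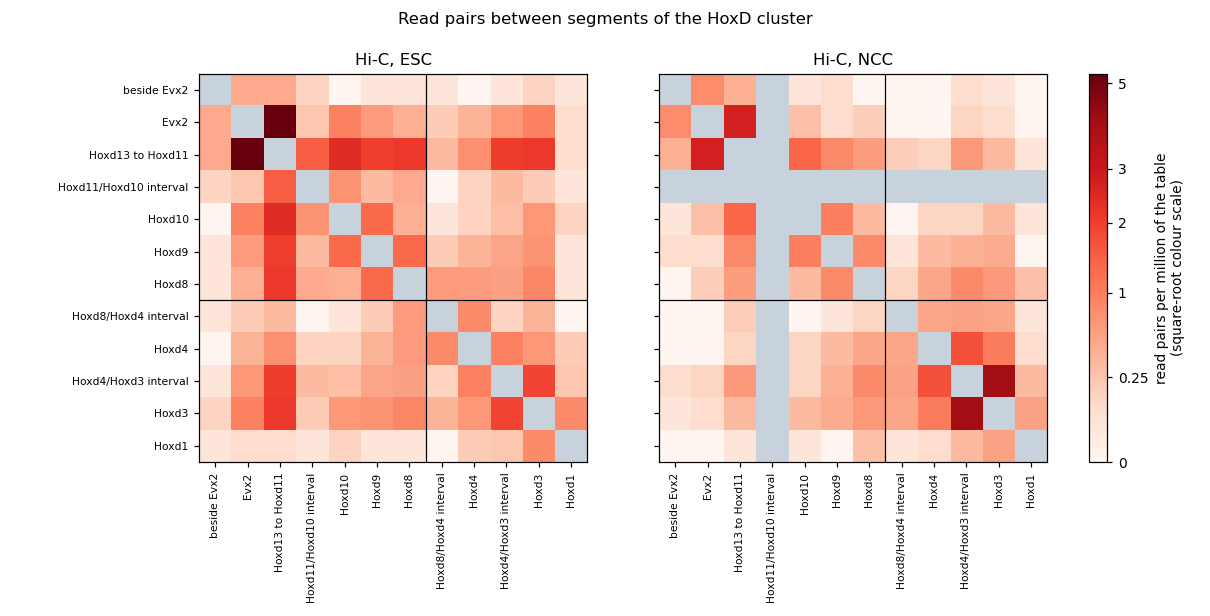
Hi-C read pairs between the 12 segments in ESC (left) and NCC (right), scaled to the table total, on a square-root colour scale. Both axes list the segments in order, black lines divide Evx2 to Hoxd8 from Hoxd4 to Hoxd1, and grey marks the diagonal and the segment without an anchor in NCC. The row of Hoxd13 to Hoxd11 is dark out to Hoxd3 in ESC (44 read pairs) and pale there in NCC (7), while the square of the Hoxd4/Hoxd3 interval and Hoxd3 is darker in NCC (86 against 39).

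HiChIP counts inside the cluster were small. In FGFR1 HiChIP, read pairs from Hoxd4 to Hoxd1 were 26 in ESC and 10 in NCC (log2 −1.65, interval −2.86 to −0.55), those between both blocks 23 and 9 (log2 −1.62, interval −2.92 to −0.45), and those from Evx2 to Hoxd8 32 and 20 (log2 −0.95, interval −1.83 to −0.09). In CTCF HiChIP, Hoxd4 to Hoxd1 had 22 and 1, where the covered length of the anchors also fell, and the CTCF anchors over Hoxd4 and Hoxd1 were absent in NCC. The anterior block was thus lower in NCC in both HiChIP assays and higher in Hi-C, and this difference between assays was not tested. Relative to Hi-C in the same cells, CTCF read-pair ends stood at percentile 92.1 of 18938 genes for Hoxd8 (ratio 2.33) and at percentile 89.7 for Evx2 (ratio 2.05) in NCC, and at percentiles 38.5 and 44.0 of 19057 genes in ESC. Other genes were low: Hoxd3 in NCC stood at percentile 7.44 for FGFR1 (ratio 0.244) and 8.80 for CTCF (ratio 0.182), and Hoxd12 in ESC at 12.2 for FGFR1 (ratio 0.399). All members together stood at percentile 55.9 in ESC and 41.0 in NCC for FGFR1, and at 51.1 and 60.7 for CTCF. For Hoxd3 and Hoxd12, the nearest coding span of the same stretch differed between Hi-C and HiChIP anchors. The CTCF values of Hoxd8 rested on 20 read-pair ends in ESC and 44 in NCC. Its CTCF anchor was 4.69 kb long in ESC and 11.999 kb in NCC, and its Hi-C anchor 11.999 kb in both. The ends of Evx2 and Hoxd1, and so of all members together, also came from anchors outside the cluster window.

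In the flanks, the partners of the cluster were spread unevenly. Up to 400 kb, the telomeric steps had more read pairs than the centromeric steps at the same distance in both cell types, except at 100 to 150 kb in ESC. The step from 350 to 400 kb, which holds the lincRNA gene Gm13652 and an end of 2600014E21Rik, had 141 read pairs in ESC and 124 in NCC and was high in both. Beyond it, the steps fell to between 8 and 57. Of the 19 telomeric steps of 50 kb, 14 were higher in NCC, 5 of them with an interval above no change, and none had one below. The step from 100 to 150 kb, which holds the last part of Mtx2, a gene for a protein of the outer mitochondrial membrane, had 29 and 81 (log2 1.45, interval 0.82 to 2.11), with 16.1 and 22.4 kb of anchor. The step from 500 to 550 kb had 14 and 51 (log2 1.83, interval 0.96 to 2.80), with 21.5 and 24.2 kb of anchor. The step from 700 to 750 kb had 8 and 29 (log2 1.82, interval 0.66 to 3.16), with 31.6 and 29.0 kb.

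Of the 15 centromeric steps, 6 were higher and 9 lower in NCC, with 1 interval above and 3 below no change. The step next to the cluster had 77 and 26 (log2 −1.60, interval −2.30 to −0.94), but its anchors covered 33.8 kb in ESC and 9.98 kb in NCC. The step from 300 to 350 kb had 44 and 19, with 25.3 and 11.98 kb of anchor. The steps that held Lnpk, a gene for a protein of the endoplasmic reticulum, had 53 and 51 and 46 and 42. The step from 600 to 650 kb was higher, with 23 and 55 (log2 1.22, interval 0.50 to 1.99) and 22.6 and 27.1 kb of anchor.

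**Figure D5:**
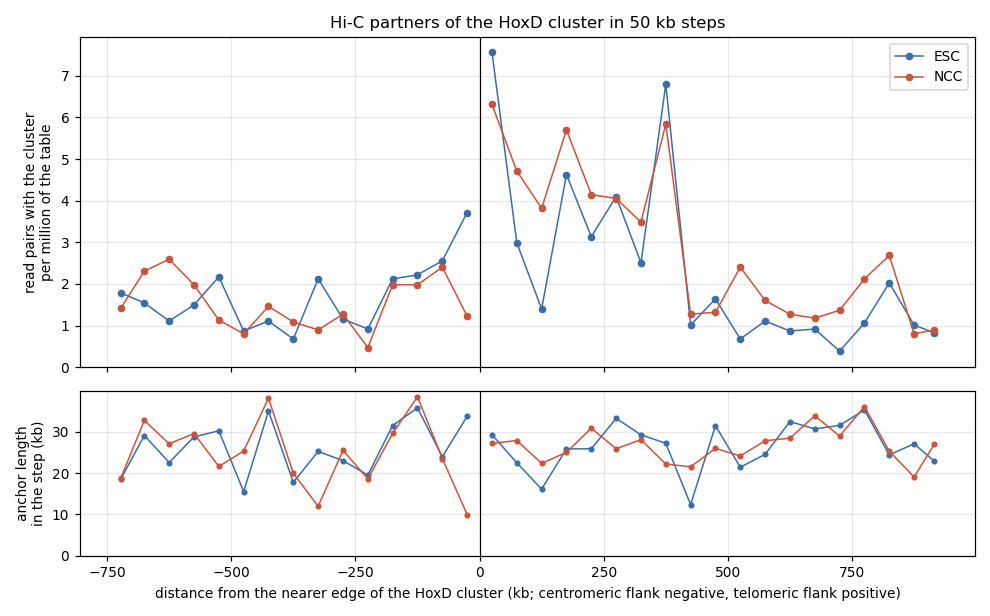
Hi-C read pairs of the HoxD cluster with partners in steps of 50 kb, scaled to the table total (top), and the length of anchors in each step in kb (bottom), against the distance from the nearer cluster edge in kb (centromeric negative, telomeric positive). Lines are the pooled ESC (blue) and NCC (red) tables. The telomeric step at 350 to 400 kb is high in both (141 and 124 read pairs), and the NCC line is above the ESC line in 14 of 19 telomeric steps.

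The partner region at least 100 kb away with the most read pairs was a stretch of 7.39 kb in the telomeric desert (chr2:75133548-75140935), 366 kb from the cluster, over Gm13652 and 2600014E21Rik. Its Hi-C anchor was 4.74 kb long in both tables. It had 45 read pairs with the cluster in ESC and 44 in NCC (log2 −0.07, interval −0.70 to 0.57), so its total was level. Its read pairs with Evx2 to Hoxd11 were 14 and 7, with Hoxd10 to Hoxd8 13 and 24, and with Hoxd4 to Hoxd1 18 and 13. The next telomeric region (chr2:74967586-74980301, 200 kb away) had 36 and 38, of which Evx2 to Hoxd11 had 11 and 4. The region 821 kb away (chr2:75588537-75605042), which holds the CTCF core match at 822 kb, had 25 and 39, of which Hoxd10 to Hoxd8 had 6 and 17. In all 3 regions, the counts with Evx2 to Hoxd11 were lower in NCC and those with Hoxd10 to Hoxd8 higher. These regions were chosen for their counts, and no test was made.

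On the centromeric side, the region with the most read pairs lay in Lnpk (chr2:74511580-74532312, 113 kb away), with 20 in ESC and 22 in NCC, of which Evx2 to Hoxd11 had 13 and 20. The next (chr2:74072732-74090429, 555 kb away), between genes in the desert, had 14 and 21, and all 14 of ESC and 18 of the 21 of NCC were with Evx2 to Hoxd11.

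The CTCF core motif had no exact match in the cluster window, 3 in the centromeric flank and 7 in the telomeric flank. The 3 exact centromeric matches were all on the plus strand and the 7 exact telomeric ones all on the minus strand. These exact matches, as the motif is written, thus run toward the cluster on both sides. Of 20679 windows of 123 kb along the genome, 39.5% held a match, and of 32851 promoters (250 bases before to 50 after the start) 0.557% did. With up to 1 mismatch the cluster held 6 matches, which 74.2% of windows reached, with 2 on the plus and 4 on the minus strand. At that setting the flanks had no such order of strands. The centromeric flank had 31 plus and 33 minus matches, and the telomeric flank 36 and 45. DR5 had 1 match in the cluster, 2 in the centromeric and 4 in the telomeric flank, 33.8% of windows held at least 1, and 0.0974% of promoters did. None of the 11 RefSeq promoters of the 10 genes held either exact motif. A match is only a match of letters.

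The printed flank matches were chosen for the read pairs of their anchors with the cluster, so such read pairs were given in advance. Of the other exact CTCF core matches, those 46, 197 and 287 kb telomeric had no Hi-C anchor over them in ESC or NCC. The match 869 kb telomeric had 1 Hi-C read pair in each, and that 97 kb centromeric had 9 in NCC and no anchor in ESC. The anchor over the match 822 kb telomeric had 16 Hi-C read pairs in ESC and 32 in NCC, and 5 and 3 in CTCF HiChIP. The anchor over the match 617 kb centromeric had 5 and 12 in Hi-C, and that over the match 345 kb centromeric 15 and 3. The neighbouring matches at 383 and 385 kb telomeric lay in an ESC Hi-C anchor with 10 read pairs and had no Hi-C anchor in NCC. The DR5 in the intron of Hoxd3 lay in the interval between Hoxd4 and Hoxd3 and was inside an anchor only in NCC Hi-C, where that anchor was longer.

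The other Hox clusters also had fewer Hi-C contacts inside in NCC, and the balance of their flanks differed from cluster to cluster. As a share of the cluster's own contacts, read pairs within HoxD had a log2 odds ratio of −0.78 (interval −0.95 to −0.60), and HoxA, HoxB and HoxC had −0.71, −0.59 and −0.61, with intervals that overlapped that of HoxD. Scaled to the table, HoxD had the lowest ratio within (0.607), and HoxA had 0.759, HoxB 0.723 and HoxC 0.733. The odds of the higher against the lower coordinate flank were higher in NCC for HoxB (log2 0.38, interval 0.24 to 0.52) and HoxC (0.27, interval 0.10 to 0.44), as for HoxD (0.45), and lower for HoxA (−0.52, interval −0.69 to −0.36). In FGFR1 HiChIP the read pairs within HoxA were higher in NCC (94 and 169), while those within HoxD (81 and 39), HoxB (263 and 193) and HoxC (158 and 131) were lower. Of the 31 genes of the other clusters, 26 had enough Hi-C read pairs, of which 2 were higher and 4 lower past 1.5-fold, beside the same 7.66% and 12.9%. In the odds of sides, 7 of 26 were higher and 4 lower past 1.5-fold, beside 1711 and 1632 of 17759 genes. In HoxB 5 of 9 were higher and 1 lower (median log2 0.91), in HoxC 2 of 7 and 0, and in HoxA 0 of 10 and 3.

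Between chromosomes, HoxD had 313 Hi-C read pairs in ESC and 422 in NCC. Of these, 7 in ESC led to the HoxA, HoxB or HoxC windows (2, 3 and 2), where 0.165 would follow from the totals of these windows, a share of 2.24% (interval 0.904 to 4.55). In NCC 0 of 422 did, and 3 counts of that total, the limit that a count of 0 allows, are 0.711%. Fisher's exact test (two-sided), which was not among the planned tests and compares the pooled libraries, gave p = 0.00244. Hox genes of different clusters resemble each other in sequence, and whether reads fitting more than 1 of them entered these counts was not tested.

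The genes whose contacts changed most like those of the summed HoxD genes over the 3 assays were sought among 1514 genes with at least 100 read pairs in each of the 6 tables. The HoxD genes together had log2 ratios of −0.35 in Hi-C, −0.67 in FGFR1 and 0.02 in CTCF HiChIP. The nearest were Sh3pxd2a (−0.34, −0.55 and 0.05), Ncoa2 (−0.26, −0.74 and −0.06) and Cfap46 (−0.25, −0.73 and 0.12), at distances of 0.121, 0.138 and 0.151.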

How the data were processed

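Hi-C and HiChIP libraries of ESC and NCC (2 of each kind per cell type) were compared. Per the study's methods, the authors found valid read pairs with HiC-Pro and called anchors and interactions with hichipper for each sample; per the submitters' processing notes the build was mm10. The deposited tables held 1 merged table per cell type and assay, whose score column is a count of read pairs between 2 anchors, not normalized. All anchor ends checked (2000 per table) fell on GATC sites of GRCm38. Columns of per-sample values left unused numbered 0.

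The counts were summed in Python 3.11.15 with numpy 2.4.6, pandas 2.3.3 and scipy 1.17.1, using GENCODE M21 genes; matplotlib 3.10.9 drew the plots. Pairs inside a single anchor (620 in ESC and 579 in NCC Hi-C) were left out. An anchor overlapping a window belonged to it. Ratios were scaled to the table total on chromosomes 1 to 19 and X; shares have exact (Clopper-Pearson) 95% intervals, ratios and odds ratios exact conditional ones, and differences of log2 odds ratios a normal one. They cover counting error only, since PCR copies and differences between cultures are not in them. With 1 pooled table per group, Fisher's exact test compares libraries. A gene or window was called past 1.5-fold with at least 50 read pairs in ESC and NCC together. Genes named were the 10 members, genes of the flanks as places of partners, the other Hox genes by counts, and the 3 genes most alike. The procedures were tested on simulated data. Alternatives were a score of at least 2, other scalings, anchor midpoints, equal flanks, partners past 100 kb, nearest start sites, at least 200 read pairs, pairs inside anchors, pairs at least 20 kb apart and leaving out the strongest anchor; segments, shared anchors and leaving out segments were added after seeing the data. The members and lists were chosen with earlier results of these data known.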

Additional observations from a re-analysis of the deposited data

How the results depend on the processing

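No paired analysis was possible because the authors merged both replicates of each group into 1 table, and for the same reason no replicate was left out. The values are log2 ratios or log2 odds ratios, NCC over ESC. Of 214 recomputed values of the cluster and of counts, 176 kept their direction and their side of the threshold, and of 78 values of single genes 67 did. Among the 214, 11 turned in direction, 10 became weaker, 8 became stronger and 9 counts moved. Among the 78, 5 turned in direction. The 214 include the values with 1 segment left out, which were added after seeing the data.

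With interactions of at least 2 read pairs, the centromeric flank was at −0.41 in Hi-C, −0.16 in FGFR1 and 2.14 in CTCF HiChIP, the CTCF telomeric flank at 1.72, the flank balance at −0.45 for FGFR1 and −0.42 for CTCF, and the FGFR1 block Evx2 to Hoxd8 at −0.66. Without each table's own strongest cluster anchor, the centromeric flank was at 0.34 in Hi-C and 0.21 in CTCF, the CTCF telomeric flank at 0.24, the balance at −0.15 in Hi-C and 0.86 in FGFR1, the block Evx2 to Hoxd8 at 0.44 in Hi-C, −0.92 in FGFR1 and 0.013 in CTCF, the Hi-C block Hoxd4 to Hoxd1 at −1.21 and the FGFR1 value between the blocks at −1.07. With shared anchors only, the centromeric flank was at −0.20 in Hi-C and 1.12 in CTCF and the CTCF value within the cluster at −0.79. With pairs at least 20 kb apart the latter was −0.62. With partners at least 100 kb away the balance was 0.85 for FGFR1 and 1.48 for CTCF. Scaled to all scores, the FGFR1 telomeric flank was at −0.36. With pairs of different segments, the FGFR1 block Evx2 to Hoxd8 was at −0.63. The strongest anchor was a different one in ESC and NCC for Hi-C and CTCF and the same one for FGFR1. The cause of these changes was not tested.

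With each segment left out in turn, Hi-C values ranged from −1.03 to −0.44 within the cluster, from −0.24 to −0.12 for the centromeric flank, from 0.17 to 0.45 for the telomeric flank and from 0.33 to 0.58 for the balance. The block Evx2 to Hoxd8 ranged from −1.28 to −0.89, Hoxd4 to Hoxd1 from −0.057 to 0.81 and the value between the blocks from −1.69 to −0.96.

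The count of genes with higher Hi-C contact was 0 by nearest start site and 0 by segments, against 1, and that of lower ones 2 by segments, against 4. Counts by segments here hold only segments named after a single gene, so the intervals between genes are left out. The count with higher side odds was 3 of 5 testable genes with at least 2 read pairs, against 6 of 7, and 1 was lower by start site, against 0. The count lower in FGFR1 was 2 of 3 testable genes with at least 2 read pairs, 3 when scaled to near contacts and 2 by segments, against 5 of 7. With at least 200 read pairs it was 0 because 0 genes were testable, which says nothing on stability. Hoxd4 was at 0.028 by segments, Hoxd3 at −0.17 and Hoxd1 at 0.21 by start site in Hi-C, and in FGFR1 Hoxd8 was at −0.049 by segments and Hoxd3 at 0.30 by start site. The depth of the HiChIP tables limited the counts inside the cluster to 81 read pairs or fewer.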
